A study of Mus musculus with 5 samples.

Results

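Of the 53700 genes in the count table, 7 carry the core of the GABA and glutamate transmitter phenotype and are described here across 5 libraries of ribosome-bound RNA from mouse midbrain. They are Gad1, Gad2, Slc32a1 and Abat for GABA, and Slc17a6, Slc17a7 and Slc17a8 for glutamate. They were chosen by symbol for their role and not by any measured value, and all 7 were found in the table and received an adjusted p. A further 22 genes of GABA and glutamate synthesis, breakdown, uptake and recycling, among them genes of GABA uptake and a glutaminase, stand in 2 companion lists.

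A neuron that releases GABA makes it from glutamate with a glutamate decarboxylase, encoded by Gad1 (GAD67) or Gad2 (GAD65), and loads it into synaptic vesicles with the transporter VGAT, encoded by Slc32a1. Abat encodes GABA transaminase, the mitochondrial enzyme that breaks GABA down. A neuron that releases glutamate needs no dedicated synthetic enzyme and is marked by a vesicular glutamate transporter: VGLUT2 (Slc17a6) in most subcortical neurons, VGLUT1 (Slc17a7) in most cortical, hippocampal and cerebellar granule neurons, and VGLUT3 (Slc17a8) in scattered neurons, many of them serotonergic. Some midbrain dopaminergic neurons are known to express Slc17a6 and to release glutamate along with dopamine, while the GABAergic neurons of the substantia nigra and ventral tegmental area lie among them.

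RNA was obtained by BAC-TRAP, in which an antibody pulls down ribosomes whose protein L10a carries an EGFP tag in cells with Cre recombinase. Every mouse was C57BL/6, carried the L10a tag and received AAV:THCre, a virus that expresses Cre from the tyrosine hydroxylase (Th) promoter. The 3 control libraries came from mice of the genotype L10a;Esrrg WT (replicates 2, 3 and 4) and the 2 others from L10a;Esrrg Flox mice (replicates 2 and 4), whose floxed Esrrg alleles lose exon 2 to Cre; Esrrg encodes the nuclear receptor ERRγ. All mice were 4 months old, 1 month after the deletion was induced, and the midbrains of several mice were pooled for each sample. Cre acts only in infected cells in which the promoter is active, and Cre-negative pulldowns were not analysed here.

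The libraries held 20635855 to 23105058 counts assigned to genes, so that 3 counts correspond to 0.13 to 0.145 CPM. Esrrg itself, counted over all its exons, stood at 1763, 1643 and 1726 normalized counts in WT 2, WT 3 and WT 4 and at 1504 and 1170 in Flox 2 and Flox 4. Its log2 fold change was -0.36 (SE 0.13) with a DESeq2 adjusted p of 0.0753, and since the deletion removes only 1 exon, this gene-level count is a weak check of the labels. The dopaminergic marker Th was at 606 to 776 TPM (a level per exon length, scaled to the same total in each library). Other cells' RNA was also present: the astrocyte gene Gfap was at 668 to 1112 TPM. Pvalb and Sst, markers of GABAergic neurons, were at 760 to 1065 and 771 to 1523 TPM. By PCR, the study found Th but not Gad65 (Gad2) enriched in its pulldowns over Cre-negative mice. How much of the transmitter gene RNA came from dopaminergic neurons was not tested. In material of this kind, fewer cells of a type and less RNA per cell cannot be told apart.

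The stretches before the start sites of the 3 genes that define a GABAergic neuron are shown, since these genes are compared with one another below. Each line gives the 250 bases before the start of Gad1, Gad2 or Slc32a1, 5′ to 3′, from RefSeq on GRCm38.p6, in lower case with the GC box (GGGCGG, either strand) in capitals.
Gad1, chr2:70561879-70562128, plus strand: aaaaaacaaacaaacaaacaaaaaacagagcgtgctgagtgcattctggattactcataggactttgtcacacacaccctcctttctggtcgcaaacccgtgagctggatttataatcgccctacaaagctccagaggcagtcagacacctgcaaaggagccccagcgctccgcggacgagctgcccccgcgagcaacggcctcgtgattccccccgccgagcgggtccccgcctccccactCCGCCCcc
Gad2, chr2:22622077-22622326, plus strand: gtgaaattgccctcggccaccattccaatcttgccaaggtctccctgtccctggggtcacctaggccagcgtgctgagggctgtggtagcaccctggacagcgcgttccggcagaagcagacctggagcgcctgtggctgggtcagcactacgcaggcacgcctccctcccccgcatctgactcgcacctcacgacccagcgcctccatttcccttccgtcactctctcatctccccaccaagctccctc
Slc32a1, chr2:158610508-158610757, plus strand: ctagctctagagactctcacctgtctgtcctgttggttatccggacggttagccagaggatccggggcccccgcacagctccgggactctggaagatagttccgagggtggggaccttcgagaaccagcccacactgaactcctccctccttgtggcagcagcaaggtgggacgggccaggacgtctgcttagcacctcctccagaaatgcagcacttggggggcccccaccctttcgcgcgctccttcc
The 3 windows hold 17 CpG in Gad1, 13 in Gad2 and 12 in Slc32a1, against a median of 6 over all 32851 windows of this length. These counts lie at the 76.5, 68.5 and 66.5 percentile of all windows, above the median but not extreme. Their GC content was 58%, 64% and 62.4%, against a median of 52.4%. Only the Gad1 window among the 3 holds a GC box, a motif present in 32.7% of all windows. The Gad1 window also holds 1 TATAAA, counted on either strand and present in 12.4% of all windows. This match lies on the opposite strand, so the printed line shows only its reverse complement. RefSeq windows were matched for 6 of the 7 genes. None of them holds the estrogen-related receptor response element TNAAGGTCA, found in 1.14% of all windows on either strand, nor the nuclear receptor half-site AGGTCA within it, found in 14%; the absence says only that these letters are not in these windows.

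Levels per length ran from Slc32a1 and Gad1 at the top to Slc17a7 and Slc17a8 at the bottom, with Abat, Gad2 and Slc17a6 between them. Slc32a1 had the highest level, at 325, 310 and 298 TPM in the WT libraries and 293 and 244 in the Flox libraries. Gad1 came next, at 179, 192 and 180 TPM in WT and 152 and 128 TPM in Flox. Both genes kept these ranks, 1 and 2, in all 5 libraries.

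Abat was at 144 ± 12.1 TPM in WT (SD, n = 3) and 102 ± 14.3 TPM in Flox (SD, n = 2). Gad2 was at 116 ± 6.43 TPM in WT and 84.2 ± 11.6 TPM in Flox. Slc17a6 was the leading glutamate transporter, at 113 ± 3.09 TPM in WT and 94.1 ± 3.67 TPM in Flox. Gad2 and Slc17a6 changed places from library to library, so their order was not resolved beyond the spread, and in Flox 4 Slc17a6 also stood above Abat.

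Slc17a7 was at 81.8, 76.8 and 10.4 TPM in WT and at 59.9 and 19.4 TPM in Flox, and ranked 6 in every library. Slc17a8 was the lowest, at 12.9, 7.58 and 6.39 TPM in WT and 10.5 and 2.92 TPM in Flox. Among all genes with at least 1 count in a library, Slc32a1 lay at the 97.4 to 98 percentile of level and Slc17a8 at the 58.4 to 73.5 percentile. Even the lowest of the 7 was therefore far above the counting floor, with 106 counts in Flox 4.

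**Figure D1:**
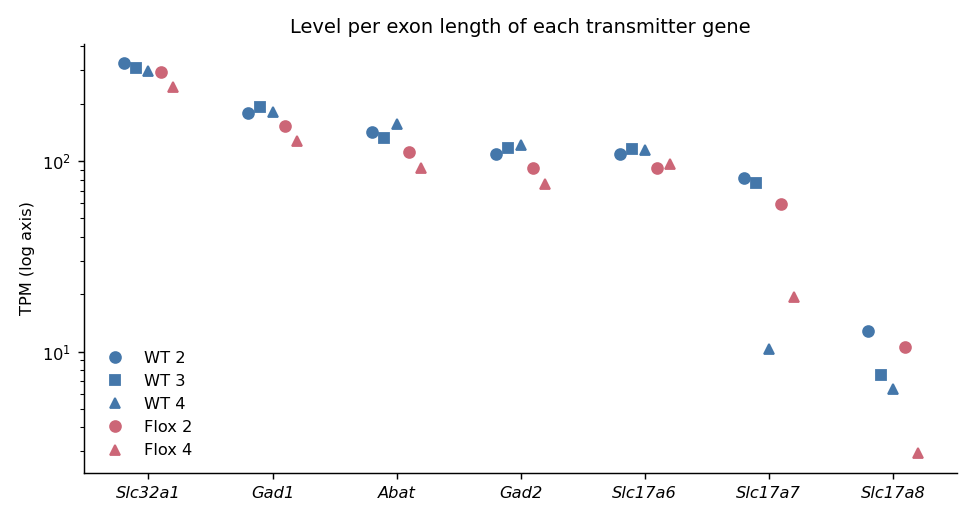
Level per exon length of the 7 transmitter genes (TPM, log axis) in each library. Blue marks Esrrg WT, red Esrrg Flox, with a circle for replicate 2, a square for 3 and a triangle for 4; Slc32a1 and Gad1 lead in all 5 libraries, and the 2 triangles of Slc17a7 (10.4 and 19.4 TPM) lie far below its other 3 points.

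The order of the leading genes depended on the length each count was divided by. With all annotated exons as length, Slc32a1 made up 33.3% ± 0.7 of the summed level of the 7 genes in WT and Gad1 19.7% ± 0.93 (SD, n = 3). With the longest transcript as length, Gad1 made up 29.7% and Slc32a1 23.6%, since Gad1 has 7639 exonic bases but a longest transcript of only 3601. Slc32a1 also shares 697 bases (24.9%) of its exons with the antisense gene Gm14205. The libraries were not strand-specific, so reads in that stretch cannot be assigned to either gene, while the other 6 genes had no overlapping gene.

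Ratios within a library do not depend on how libraries are scaled. Gad1 stood at 1.64, 1.64 and 1.48 times the level of Gad2 in WT and at 1.65 and 1.69 times in Flox. The 2 decarboxylases thus kept nearly the same proportion in 4 libraries, with WT 4 the lowest. Slc32a1 exceeded Slc17a6 by 2.97, 2.69 and 2.61 times in WT and by 3.2 and 2.52 times in Flox, and the groups overlapped.

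Set against Th in the same library, Gad1 had 26.2%, 30.9% and 23.2% of its level in WT and 25.1% and 21.1% in Flox. Gad2 had 16%, 18.8% and 15.7% of the Th level in WT and 15.2% and 12.5% in Flox. Gad1 overlapped between the groups on this measure, whereas both Flox libraries lay below all WT libraries for Gad2. Abat had 20.9%, 21.3% and 20.2% of the Th level in WT and 18.5% and 15.2% in Flox, again without overlap. Slc17a6 had 16%, 18.5% and 14.7% in WT and 15.1% and 16% in Flox, and overlapped. With 3 against 2 libraries, no exact permutation test can give a two-sided p under 0.1, so these ratios carry no test. The share of all genes without overlap was not computed for ratios to Th. In normalized counts, both Flox libraries lay below all WT libraries for 22.5% of all genes tested.

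The comparison of Esrrg Flox with Esrrg WT asks how these genes stood after Esrrg had been removed from dopaminergic neurons. Of the 7 genes, 2 passed the test: Abat, the GABA-degrading enzyme, fell by 23.4%, and Gad2, the decarboxylase GAD65, fell by 21.6%. None rose. Slc32a1 and Slc17a6, the transporters that mark GABA and VGLUT2 neurons, did not pass the test. The vesicular glutamate transporters Slc17a7 and Slc17a8 varied far more between libraries than between groups.

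The count of 2 of 7 lower genes stands beside 4.05% of all 15724 genes tested that passed lower in Flox, 4.2% that passed higher and 8.25% in either direction (DESeq2 adjusted p under 0.05 over all genes tested). All 7 log2 fold changes were below 0, as were those of 50.9% of all genes, and their median was -0.32 beside -0.0063 for all genes tested. None of the 7 reached a fold change of 1.5, the size that the study's rule also requires and that 3.18% of all genes tested reached along with the adjusted p. Both Flox libraries lay below all WT libraries for 3 of the 7, against 22.5% of all genes tested, and above them for none, against 19.9%. At an unadjusted p under 0.05, 3 of the 7 were lower (Gad1, Gad2 and Abat), beside 20.3% of all genes in either direction.

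**Figure D2:**
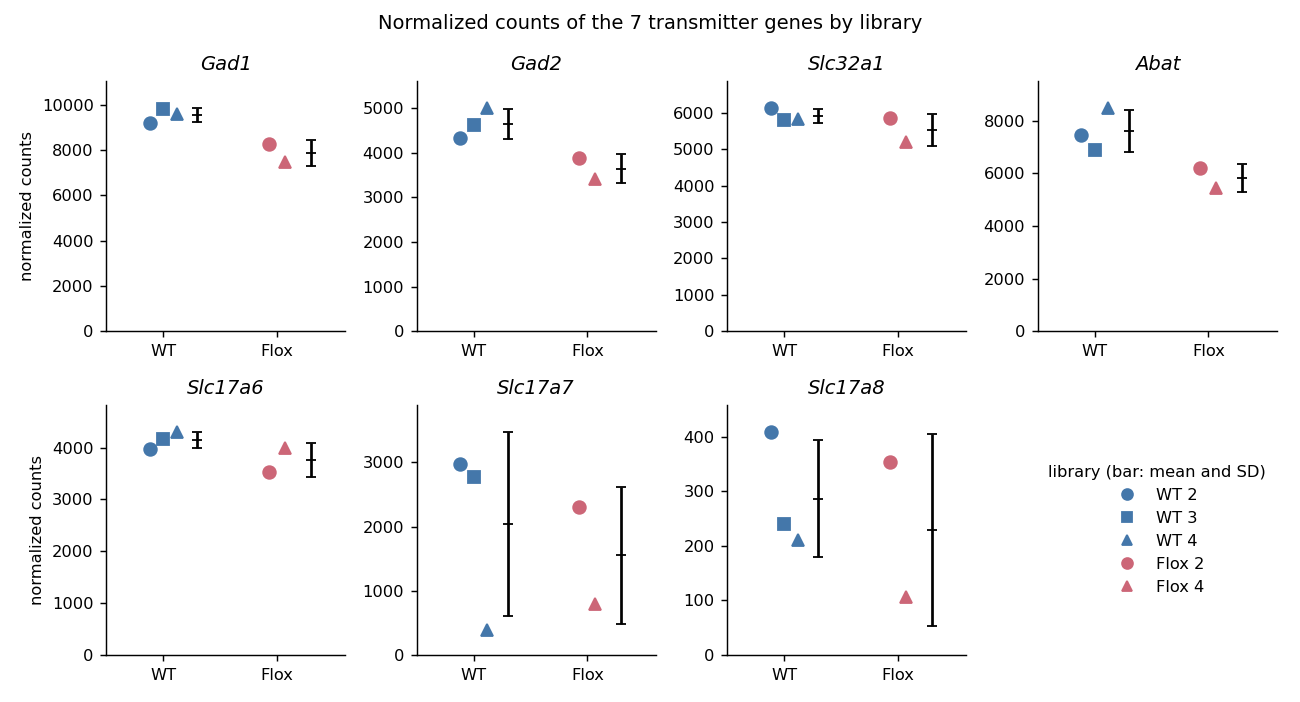
Normalized counts (counts divided by DESeq2 size factors) of the 7 transmitter genes, 1 panel each with an axis from 0, by group. Points are libraries (circle, replicate 2; square, 3; triangle, 4) and bars the mean ± SD; Gad1, Gad2 and Abat do not overlap between groups, while Slc17a7 and Slc17a8 are lowest in the 2 libraries numbered 4.

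Gad2 (ENSMUSG00000026787.4) had 4325, 4609 and 5002 normalized counts in WT 2, WT 3 and WT 4 and 3873 and 3411 in Flox 2 and Flox 4. Both Flox libraries lay below all WT libraries, with Flox 4 the lowest. The means were 4645 ± 340 (SD, n = 3) and 3642 ± 327 (SD, n = 2). The log2 fold change was -0.35 (SE 0.11, 95% interval -0.57 to -0.13) with a DESeq2 adjusted p of 0.0302.

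Gad1 (ENSMUSG00000070880.11), the decarboxylase that supplies most of the GABA in a neuron's cell body, had 9219, 9840 and 9616 normalized counts in WT and 8284 and 7480 in Flox. Both Flox libraries again lay below all WT libraries, with means of 9558 ± 315 and 7882 ± 568, a difference of -17.5%. Its log2 fold change was -0.28 (SE 0.098, 95% interval -0.47 to -0.087). The adjusted p of 0.052 (DESeq2) missed the threshold, and a difference between the changes of the 2 decarboxylases was not tested.

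Slc32a1 (ENSMUSG00000037771.12) had 6136, 5804 and 5820 normalized counts in WT and 5846 and 5211 in Flox. Flox 2 lay within the WT range and Flox 4 below it. The log2 fold change was -0.099 (SE 0.10, 95% interval -0.30 to 0.099) with a DESeq2 adjusted p of 0.672, so a fall larger than 0.30 on the log2 scale lies outside the interval. Slc32a1 was among the steadier genes: its highest library was 1.18 times its lowest, against 1.38 times for the median gene. On the TPM scale both Flox libraries lay below all WT libraries for Slc32a1 and for Slc17a6, so their overlap holds for normalized counts and not for TPM. Th, Snap25, Tubb3 and Map2 also overlapped in normalized counts and not in TPM, while Syt1 overlapped in both. The share of all genes that lay apart in TPM was not computed, so this is not particular to the transporters.

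Abat (ENSMUSG00000057880.13) had 7443, 6892 and 8483 normalized counts in WT and 6203 and 5451 in Flox. Both Flox libraries lay below all WT libraries, and WT 4 stood highest. The means were 7606 ± 808 and 5827 ± 532, and the log2 fold change was -0.38 (SE 0.12, 95% interval -0.62 to -0.15) with a DESeq2 adjusted p of 0.0251. Abat is expressed in astrocytes as well as in neurons.

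The calls for Gad2 and Abat each ended when 1 library was left out. Without WT 2, WT 4 or Flox 4 the DESeq2 adjusted p of Gad2 became 0.108, 0.0814 and 0.663 and that of Abat 0.152, 0.069 and 0.604, and the call for Gad2 was also lost without WT 3 (adjusted p of 0.146). Both calls were lost with edgeR (0.0857 for Gad2 and 0.0845 for Abat), with limma voom (0.0873 and 0.0871) and with the length trend removed (0.0625 and 0.0681). Size factors from dopaminergic markers ended both calls too, moving Gad2 to -0.17 and Abat to -0.20 on the log2 scale. The median of all genes tested moved to 0.17 with them. Relative to that median the differences were -0.34 for Gad2 and -0.37 for Abat. Subtracting the median largely undoes the rescaling, so these values are no separate support for a fall.

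**Figure D3:**
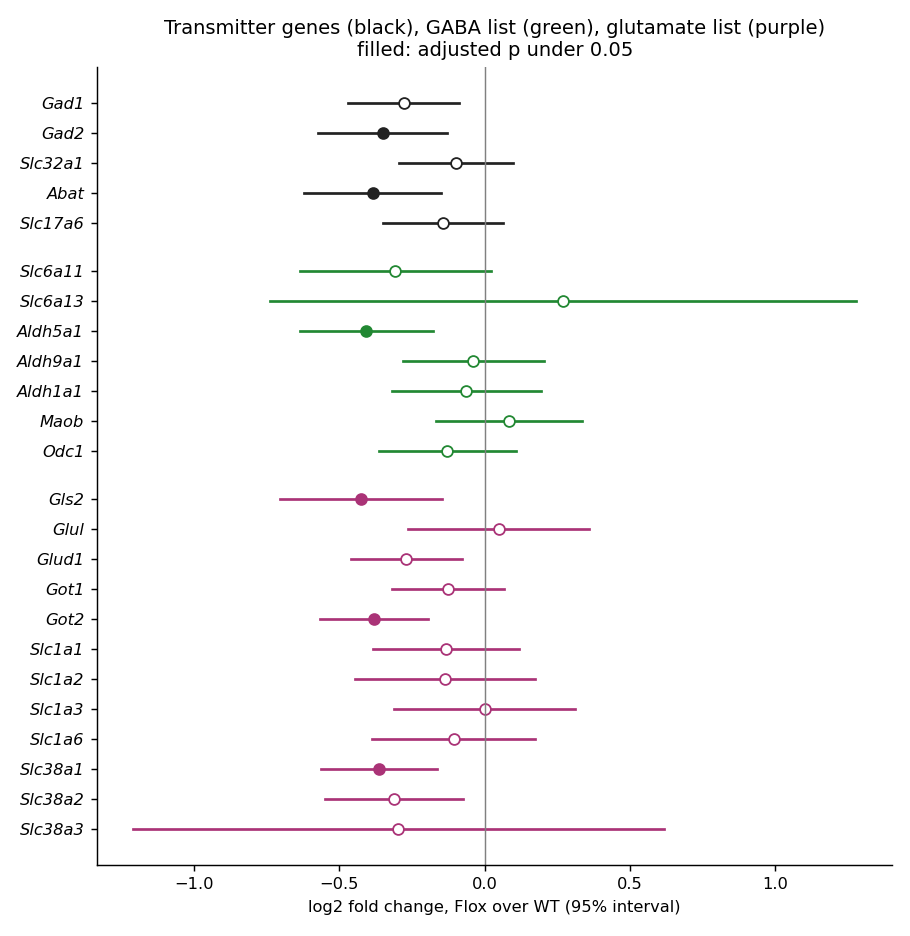
Log2 fold change of Esrrg Flox over Esrrg WT with its 95% interval (DESeq2) for the transmitter genes (black), the GABA list (green) and the glutamate list (purple), filled where the adjusted p was under 0.05. Slc17a7, Slc17a8 and Slc6a12 are left out because their standard errors are at least 0.6, and not every gene of the lists is drawn; the filled points all lie below 0, from -0.43 (Gls2) to -0.35 (Gad2).

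Among the glutamate transporters, Slc17a6 (ENSMUSG00000030500.7) was steady. It had 3981, 4165 and 4301 normalized counts in WT and 3526 and 3991 in Flox. Flox 2 lay below the WT libraries and Flox 4 just above the lowest of them. The log2 fold change was -0.14 (SE 0.11, 95% interval -0.35 to 0.063), with a DESeq2 adjusted p of 0.498.

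Slc17a7 (ENSMUSG00000070570.6) had 2974, 2772 and 390 normalized counts in WT and 2303 and 800 in Flox. The 2 libraries numbered 4 lay far below the other 3, whatever their genotype. Its highest library was 7.62 times its lowest, a spread at the 99th percentile of all genes tested. The log2 fold change was -0.40 with an SE of 1.1 (95% interval -2.56 to 1.76; DESeq2 adjusted p of 0.908), too wide to exclude a large change in either direction. Single libraries decided the value, which was 0.17 without Flox 4 and -1.35 without Flox 2.

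Slc17a8 (ENSMUSG00000019935.17) had 410, 239 and 210 normalized counts in WT and 354 and 105 in Flox. The 2 libraries numbered 4 were again the lowest, and the highest library was 3.89 times the lowest (96.7 percentile of spread). The log2 fold change was -0.32 (SE 0.71, DESeq2 adjusted p of 0.88). It rested on single libraries, since it was -1.44 with a DESeq2 adjusted p of 0.0022 without Flox 2, 0.31 without Flox 4 and 0.031 without WT 2. Both libraries numbered 4 lay below the other 3 in 11.7% of all genes tested; the labels say nothing of what replicate 4 shares.

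The make-up of the vesicular glutamate transporters in a library followed from this. Slc17a6 made up 53.6%, 57.7% and 87.2% of their summed level per length in WT 2, WT 3 and WT 4, and 56.5% and 81.2% in Flox 2 and Flox 4. Slc17a7 made up 40.1%, 38.5% and 7.92% in WT and 37% and 16.3% in Flox. VGLUT2 transcripts thus led in every library, and the share of VGLUT1 transcripts was low in the 2 libraries numbered 4 and similar in the other 3, whatever the genotype.

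Markers of other neurons were read beside these values. Tph2, the serotonin-synthesising enzyme of the raphe nuclei that adjoin the midbrain, had 2740, 1459 and 1752 normalized counts in WT and 2622 and 866 in Flox. Slc6a4, the serotonin transporter, had 1273, 638 and 683 in WT and 1207 and 360 in Flox. Like Slc17a8, both were highest in WT 2 and Flox 2 and lowest in Flox 4, although WT 3 and WT 4 stood in the other order. The summed level of the 3 serotonergic markers was 4394, 2235 and 2617 in WT and 4136 and 1320 in Flox; its part in the values of Slc17a8 was not tested.

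Neurod2, a transcription factor of forebrain glutamatergic neurons, had 558, 432 and 146 normalized counts in WT and 588 and 288 in Flox. It was lowest in the libraries numbered 4, as Slc17a7 was. This held for 3 of the 8 forebrain glutamatergic markers, beside 11.7% of all genes tested. The sum of the 8 did not follow it, at 4262, 4877 and 3786 in WT and 4721 and 4911 in Flox. Most of that sum was Camk2a alone, at 2728, 3606 and 2862 in WT and 3187 and 3982 in Flox. The sum therefore says little of the other markers in the list. The 3 cerebellar granule cell markers were near 0, with sums of 48.9 to 69.2 normalized counts in a library. The part of forebrain cells in the values of Slc17a7 was not tested.

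Of 3 cholinergic markers 1 passed the test lower in Flox, beside 4.05% of all genes tested. This was Slc5a7, the choline transporter, at 163, 86.6 and 70.1 normalized counts in WT and 59.6 and 32.8 in Flox. Its log2 fold change was -1.20 (SE 0.41, DESeq2 adjusted p of 0.0456), at low counts that varied widely among the WT libraries. Chat and Slc18a3 did not pass and were lowest in the libraries numbered 4. The summed level of the 3 was 435, 284 and 172 in WT and 244 and 141 in Flox, and its part in the values of Slc17a7 was not tested.

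**Figure D4:**
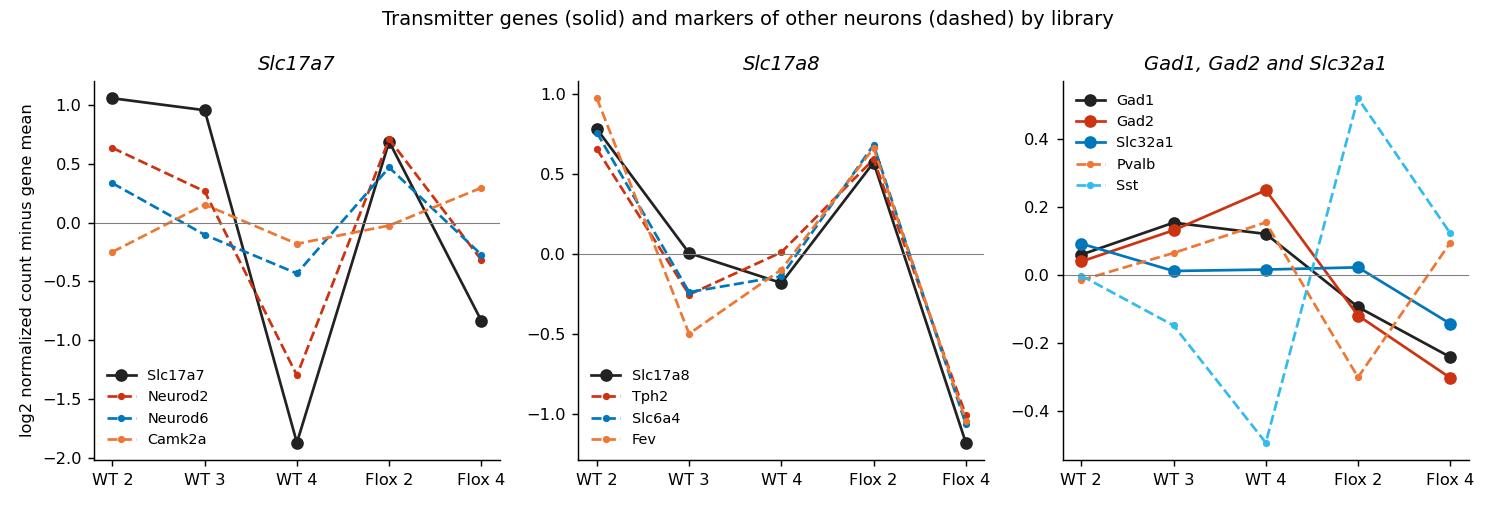
Log2 normalized counts centred on the mean of the 5 libraries, by library, for transmitter genes (solid) and markers of other neurons (dashed), in 3 panels with their own scales. Slc17a7 falls in WT 4 and Flox 4 along with Neurod2 and Neurod6, whereas Camk2a is highest in Flox 4. Slc17a8 is highest in WT 2 and Flox 2 and lowest in Flox 4, as Tph2 is. Sst runs opposite to Gad2 in WT 4 and Flox 2.

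Glial and vascular markers moved with genotype or with replicate number. Of 12 microglia markers 10 passed the test higher in Flox, beside 4.2% of all genes tested, and the lowest log2 fold change of the 12 was 0.35. Their summed normalized counts were 2441, 2931 and 1545 in WT and 5211 and 11162 in Flox. Of 5 endothelial markers 3 passed higher and the lowest log2 fold change was 0.70, with sums of 78.8 to 192 in WT and of 205 and 600 in Flox. Flox 4 had both the most microglial RNA and the lowest values of Gad1, Gad2, Slc32a1 and Abat. The part of these cells in those values was not tested.

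None of 9 astrocyte and 8 oligodendrocyte markers passed the test between genotypes, beside 8.25% of all genes tested. Their sums in the libraries numbered 4 were above the other 3, for astrocyte markers at 68624 and 64874 normalized counts against 45061 to 55312. The sum over 12 pan-neuronal genes ranged from 276696 to 296504, and 1 of them passed lower in Flox, beside 4.05% of all genes tested. That over 11 dopaminergic markers was 51414 to 61247 in WT and 52387 and 55086 in Flox. The sum hides single genes, since 1 of the 11 passed lower, beside 4.05% of all genes tested. This was Ret (log2 fold change of -0.40, DESeq2 adjusted p of 0.00291). In 7 of the 11 the groups did not overlap. Slc6a3, Pitx3, Foxa1, Lmx1b and Ret lay below all WT libraries (22.5% of all genes tested). Slc18a2 and Ddc lay above them (19.9%).

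Of 14 other markers of GABAergic neurons 1 passed the test, beside 8.25% of all genes tested. This was Sst (somatostatin), which was higher in Flox, at 5455, 4928 and 3880 normalized counts in WT and 7835 and 5948 in Flox (log2 fold change of 0.54, DESeq2 adjusted p of 0.0157). Pvalb, which marks many GABAergic neurons of the substantia nigra pars reticulata, had 6881, 7272 and 7741 in WT and 5643 and 7429 in Flox, and overlapped. Tal1, a transcription factor that specifies midbrain GABAergic neurons, had a log2 fold change of -0.51 and did not pass (DESeq2 adjusted p of 0.0618). The transcription factor genes Pax5 (-0.39, DESeq2 adjusted p of 0.121) and Lhx1 (-0.33, DESeq2 adjusted p of 0.218) did not pass either. In all 3 both Flox libraries lay below all WT libraries, beside 22.5% of all genes tested. Other transcription factor genes of the list went the other way without passing: Dlx1 (0.43), Dlx2 (0.58), Dlx5 (0.33) and Gata2 (0.21). Gata3, Sox14, Six3 and Zfpm2 were below 0 and did not pass. The median log2 fold change of the 14 was -0.11.

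The remaining genes of both pathways were read from the companion lists. Of these 22 genes, 4 fell and none rose, which is 18.2% beside the 8.25% of all genes tested that passed. They were Aldh5a1, 1 of 9 in the GABA list, and Got2, Gls2 and Slc38a1, 3 of 13 in the glutamate list. The median log2 fold change was -0.091 in the GABA list and -0.14 in the glutamate list, beside -0.0063 for all genes tested. Of the 22 values 18 were below 0, beside 50.9% of all genes tested. Both Flox libraries lay below all WT libraries for 6 of them, beside 22.5% of all genes tested, and above for none, beside 19.9%.

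In the GABA list, Aldh5a1 encodes succinate semialdehyde dehydrogenase, the mitochondrial enzyme that follows Abat in GABA breakdown. It had 2460, 2408 and 2462 normalized counts in WT and 2013 and 1670 in Flox. The WT libraries lay close together and both Flox libraries below them. Its log2 fold change was -0.41 (SE 0.12) with a DESeq2 adjusted p of 0.0121.

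Slc6a11, the mainly astrocytic GABA transporter GAT3, did not pass the test. It had 7020, 6140 and 9606 normalized counts in WT and 5646 and 6627 in Flox, with a log2 fold change of -0.31 and an adjusted p of 0.291 (DESeq2). The groups overlapped, and WT 4 was the highest library.

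In the glutamate list, Got2 encodes the mitochondrial aspartate aminotransferase, which interconverts glutamate and aspartate. It had 5843, 5760 and 5787 normalized counts in WT and 4640 and 4266 in Flox. The WT means and SD were 5796 ± 42.5 and those of Flox 4453 ± 265, with no overlap. The log2 fold change was -0.38 (SE 0.095) with a DESeq2 adjusted p of 0.00306, the lowest among the 29 transmitter and pathway genes.

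Gls2 encodes a glutaminase, an enzyme that makes glutamate from glutamine. It had 1017, 972 and 1168 normalized counts in WT and 851 and 716 in Flox, with a log2 fold change of -0.43 (SE 0.14, DESeq2 adjusted p of 0.0383). Both Flox libraries lay below all WT libraries.

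Slc38a1 encodes a carrier that brings glutamine into neurons. It had 7002, 7221 and 6822 normalized counts in WT and 5803 and 5108 in Flox, without overlap, and a log2 fold change of -0.36 (SE 0.1, DESeq2 adjusted p of 0.00978). Its relative Slc38a2 and the glutamate dehydrogenase gene Glud1 also lay below all WT libraries in both Flox libraries. Their log2 fold changes of -0.31 and -0.27 did not pass, with DESeq2 adjusted p of 0.089 and 0.0619.

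Genes of glutamate clearance did not pass. Glul, the astrocytic glutamine synthetase, had a log2 fold change of 0.049 (DESeq2 adjusted p of 0.923). Slc1a2, the astrocytic glutamate transporter, stood at -0.14 (adjusted p of 0.72) and Slc1a1, its neuronal relative, at -0.13 (adjusted p of 0.648). Each overlapped between the groups. The calls for Aldh5a1, Got2, Gls2 and Slc38a1 were each lost without WT 2, without WT 3 or without Flox 4, and with edgeR, limma voom or dopaminergic size factors, so that none of the 4 passed in those fits.

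**Figure D5:**
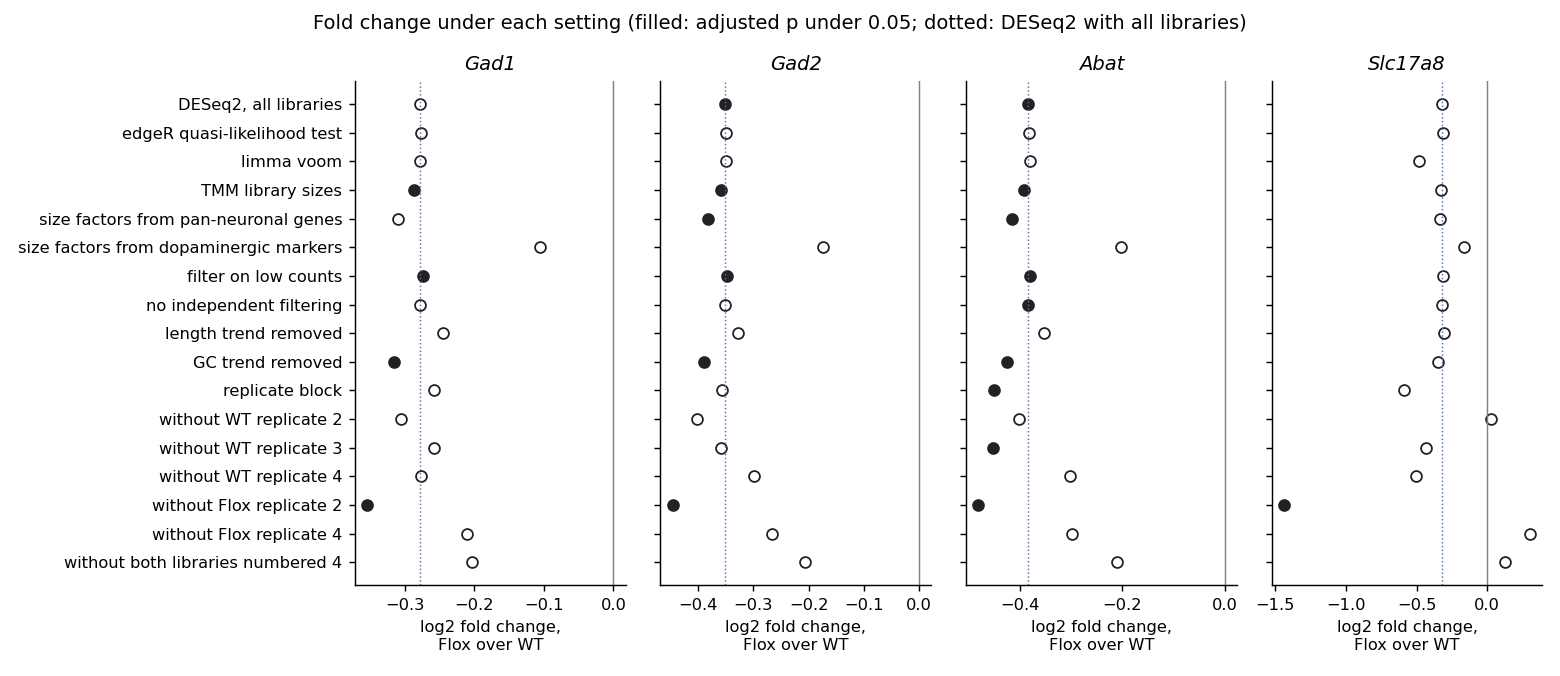
Log2 fold change of Flox over WT for Gad1, Gad2, Abat and Slc17a8 with DESeq2 on all libraries (dotted line) and under each of 16 alternatives, filled where the adjusted p was under 0.05, each panel with its own scale. Gad1, Gad2 and Abat stay below 0 throughout, from -0.48 to -0.11, while Slc17a8 crosses 0 without WT 2, without Flox 4 and without both libraries numbered 4.

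Across the 5 libraries, the genes closest to a given pattern were ranked by the root mean square difference of centred log2 normalized counts among 12839 candidates. For the mean of Gad1, Gad2 and Slc32a1 these were Fam8a1 (0.0096), Exoc3 (0.012) and 9330102E08Rik (0.014), against 0.18 for the median candidate. For Slc17a6 they were Hif1an (0.0081), Dus3l (0.018) and Mtfp1 (0.021). With 5 libraries and so many candidates, close matches to such flat patterns are a description only.

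The closest to Slc17a7 were Col3a1 (0.23), Fn1 (0.26) and Thbd (0.32), against 1.2 for the median candidate. Col3a1, a fibrillar collagen, had 102, 105 and 16.3 normalized counts in WT and 125 and 36.8 in Flox. Fn1, which encodes fibronectin, had 241, 251 and 43.2 in WT and 289 and 101 in Flox. Both were lowest in the 2 libraries numbered 4, as Slc17a7 was.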

How the data were processed

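The deposited table holds raw read counts per gene and library, which the authors made with Trim Galore 0.6.6, STAR 2.7.9a and HTSeq 0.11.3 as given in the submitters' processing notes. The libraries were poly(A)-selected and not strand-specific. The notes name GRCm39 and the study's methods GRCm38, so the only coordinates printed are those of the RefSeq windows (GRCm38.p6). Of the 53700 Ensembl IDs, 52093 (97%) were named from GENCODE (GRCm38), which also gave exon lengths. Reads outside genes (3.18 to 4.45%), ambiguous reads (5.62 to 5.78%) and multimapped reads (3.6 to 4.23%) were left out. WT and Flox were compared with the two-sided Wald test of DESeq2 1.42.0 (R 4.3.3), as in the study, with Benjamini-Hochberg adjustment over all genes, and this was tested on simulated data. Alternatives used edgeR 4.0.16, limma 3.58.1 (voom), other size factors, a filter (at least 10 counts in 2 libraries), no independent filtering, GC and length trends (loess span 0.5), the replicate block and omission of each library. TPM-like levels divide counts by exon length. All 7 transmitter genes were named, with pathway genes that passed, Slc6a11, Glul, Slc1a1, Slc1a2, markers beside a result, and the 3 genes closest to a pattern (mean of at least 50); some genes that this rule names are not reported here. The genes and lists were chosen with earlier results of these data known; Slc38a2, Glud1, Tal1, Pax5, Lhx1, Slc5a7 and the examples of marker lists were picked after their values were seen. Per the study's methods each sample pooled the midbrains of several mice, so p-values measure the spread between pools and not between animals.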

Additional observations from a re-analysis of the deposited data

How the results depend on the processing

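The log2 fold changes of Gad1, Gad2 and Abat stayed below 0 under all 16 alternatives, with ranges of -0.35 to -0.11, -0.45 to -0.17 and -0.48 to -0.20. DESeq2, edgeR or limma adjusted p ranged from 0.0274 to 0.762 for Gad1 (passed in 4 of 16), 0.0163 to 0.663 for Gad2 (5 of 16) and 0.0151 to 0.604 for Abat (8 of 16). Over all genes, 1297 passed in the DESeq2 fit, 236 in edgeR's quasi-likelihood test and 0 in limma voom (3816 genes at an unadjusted p under 0.05 in each of the last pair). The count of transmitter genes, 2, became 0 with edgeR, 0 with limma voom, 0 with dopaminergic size factors, 0 with the length trend removed and 1 without independent filtering. By unadjusted p under 0.05, 3 transmitter genes were called by edgeR and by limma voom. The count of pathway genes, 4, became 0 with edgeR, limma voom and dopaminergic size factors, with 6 at an unadjusted p under 0.05 by edgeR and by limma voom. Leaving out 1 library gave 72 to 1585 genes, 0 to 4 transmitter genes, 0 to 4 pathway genes and a log2 fold change of -0.55 to -0.19 for Esrrg, which passed only without Flox 2. The genes past the threshold numbered 343 without WT 2, 641 without WT 3 and 72 without Flox 4. Without both libraries numbered 4, chosen after seeing the data, 329 genes and 0 transmitter genes passed (5 at an unadjusted p under 0.05), and Slc17a7 stood at -0.32 (SE 0.12, adjusted p of 0.0664). There and without either Flox library, the lone Flox library is assumed to vary like the others. Size factors from dopaminergic markers gave 1157 higher and 121 lower genes, against 660 and 637 in the main comparison, 491 and 696 with pan-neuronal size factors, 509 and 819 with the GC trend removed and 432 and 595 with the length trend removed; they reversed Slc32a1 (0.073) and Slc17a6 (0.034). Single libraries reversed Slc17a7 (0.17 without Flox 4) and Slc17a8 (0.031 without WT 2, 0.31 without Flox 4), as did leaving out both libraries numbered 4 for Slc17a8 (0.13). Without Flox 2 they stood at -1.35 and -1.44. With the longest transcript as length, the WT shares were 29.7% for Gad1, 9.05% for Gad2, 23.6% for Slc32a1, 18.4% for Abat and 11.2% for Slc17a6. The cause of these shifts was not tested.

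The labels share replicate numbers 2 and 4 between the groups. Deviations from the group means correlated at 0.092 for the libraries numbered 2 and 0.086 for those numbered 4, across 16178 genes, so the numbers were not taken to pair the samples. A fit with the replicate block called 476 genes, 1 transmitter gene (Abat, DESeq2 adjusted p of 0.028, against 0.155 for Gad2) and 2 pathway genes, and put Slc17a7 at 0.33 with an SE of 0.65.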
